A study of Mus musculus with 18 samples.

Results

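Described here are 9 genes whose products act at mitochondria, or that copy such genes, in the retina and in 661W cells after expression of a normoxia-stable HIF1A. They were taken as a list: the mitophagy receptors Bnip3, Bnip3l and Fundc1, the kinase Pink1, the mitochondrial proteins Fam162a, Higd1a and Mgarp, and the pseudogenes Gm16439 and Gm9790, which resemble Bnip3 and Higd1a. These are 9 of 78239 genes in each count table, and all 9 passed the filter on low counts in both experiments (18859 genes tested in the retina and 15962 in the cells). Retinal mRNA was sequenced 3 weeks after subretinal injection, at postnatal days 29 to 32, of AAV::nsHif1a or AAV::eGFP (5 libraries each). 661W cells, a photoreceptor-like line from a mouse retinal tumour, were sequenced 20 h after transfection with a plasmid for nsHif1a or eGFP (4 libraries each).

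The nsHif1a transgene encodes mouse HIF1A with amino acid exchanges that keep it stable and active at normal oxygen, with a Myc-tag. In the retina, a rod-specific mouse opsin promoter (mOP) drove both transgenes and the virus reached only part of the tissue, so each retinal library mixed transduced rods with all other cells. In the cells, the CMV promoter drove both transgenes. The sample labels give the mice as C57BL/6J, whereas the study's methods describe wild-type 129S6 mice. Bulk RNA cannot tell fewer cells of a type from less RNA per cell. Nothing in the labels says that the cell libraries came from separate cultures, so their p-values measure the spread between libraries, which may be technical.

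Mitophagy is the removal of mitochondria by autophagy. Receptors in the outer mitochondrial membrane, among them BNIP3, NIX (the product of Bnip3l) and FUNDC1, bind Atg8 proteins of the forming autophagosome directly, whereas PINK1 marks depolarized mitochondria for removal through ubiquitin. Bnip3 is a classical HIF1 target and links low oxygen to this process. Photoreceptors hold densely packed mitochondria in their inner segments, and rods are the most numerous cells of the mouse retina.

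Depth ranged from 12898220 to 17809585 counts per library, at which 3 counts correspond to 0.168 to 0.233 CPM, a gene's count relative to its library's total, scaled between libraries by TMM. This limit covers counting error only. Hif1a, whose count sums the endogenous gene and the transgene, was 157 ± 6.79 CPM in eGFP cells and 1561 ± 384 CPM in nsHif1a cells (SD, n = 4 each). In the retina it was 668 ± 26.1 and 687 ± 31.6 CPM (SD, n = 5 each), and the groups overlapped, so the Hif1a count does not check the retinal labels. Rod markers summed to between 45470 and 50320 CPM with AAV::eGFP and between 35480 and 47390 CPM with AAV::nsHif1a. Lens γ-crystallins summed to 10900, 1299, 11510, 18960 and 920 CPM in the AAV::nsHif1a libraries, against 634 to 2816 CPM with AAV::eGFP. Counts of Xist were between 19492 and 28595 in 7 retinal libraries, all 5 with AAV::nsHif1a and 2 with AAV::eGFP, and between 1 and 3 in the remaining 3 controls. In the cells, the summed rod markers were between 9.23 and 13.4 CPM and the cone markers between 2.10 and 4.71 CPM. Pde6a, a rod phosphodiesterase subunit, reached 156 counts in a cell library, whereas no other rod marker exceeded 37 counts and no cone marker 43.

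A gene was called at an adjusted p-value under 0.05 (limma, Benjamini-Hochberg over all genes tested) and an absolute log2 fold change (log2FC) above 0.5. The 9 genes were chosen with earlier results of these data known, so the shares of all genes given beside them do not test the set. In the retina 5 of the 9 genes were called higher with nsHif1a, where 1.08% of all genes tested were called higher and 0.912% lower. These were Bnip3, Fam162a, Higd1a, Gm16439 and Gm9790. In the cells 5 of 9 were called higher, where 1.21% of all genes were called higher and 0.0626% lower. These were Bnip3, Fam162a, Mgarp, Gm16439 and Gm9790, of which Mgarp passed the filter on low counts only through its nsHif1a libraries. The 4 genes called in both experiments, which share no samples, were Bnip3, Fam162a and the pair of pseudogenes, and 0.234% of the 14119 genes tested in both were called higher in both. The pseudogenes share long stretches with Bnip3 and Higd1a, so their calls may count reads of these parents and are not separate from them. With pseudogene counts added to the parents, Bnip3, Fam162a and Higd1a were called in the retina, and the same genes and Mgarp in the cells. None of the 9 was called lower in either experiment by limma, by edgeR's quasi-likelihood test or by DESeq2, and none was lower at an unadjusted p-value under 0.05. With the adjusted p alone, Bnip3l was added in the retina (6 of 9 genes, against 3.31% of all genes) and none in the cells (5 of 9, against 2.06%). Every nsHif1a library was above every eGFP library for the same 6 genes in the retina, where 3.25% of all genes lay apart in this direction. In the cells this held for 6 genes, the 5 called and Higd1a, where 7.51% of all genes did. The median log2FC of the 9 genes was 0.67 in the retina and 0.55 in the cells, against 0.00 over all genes tested in each.

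**Figure D1:**
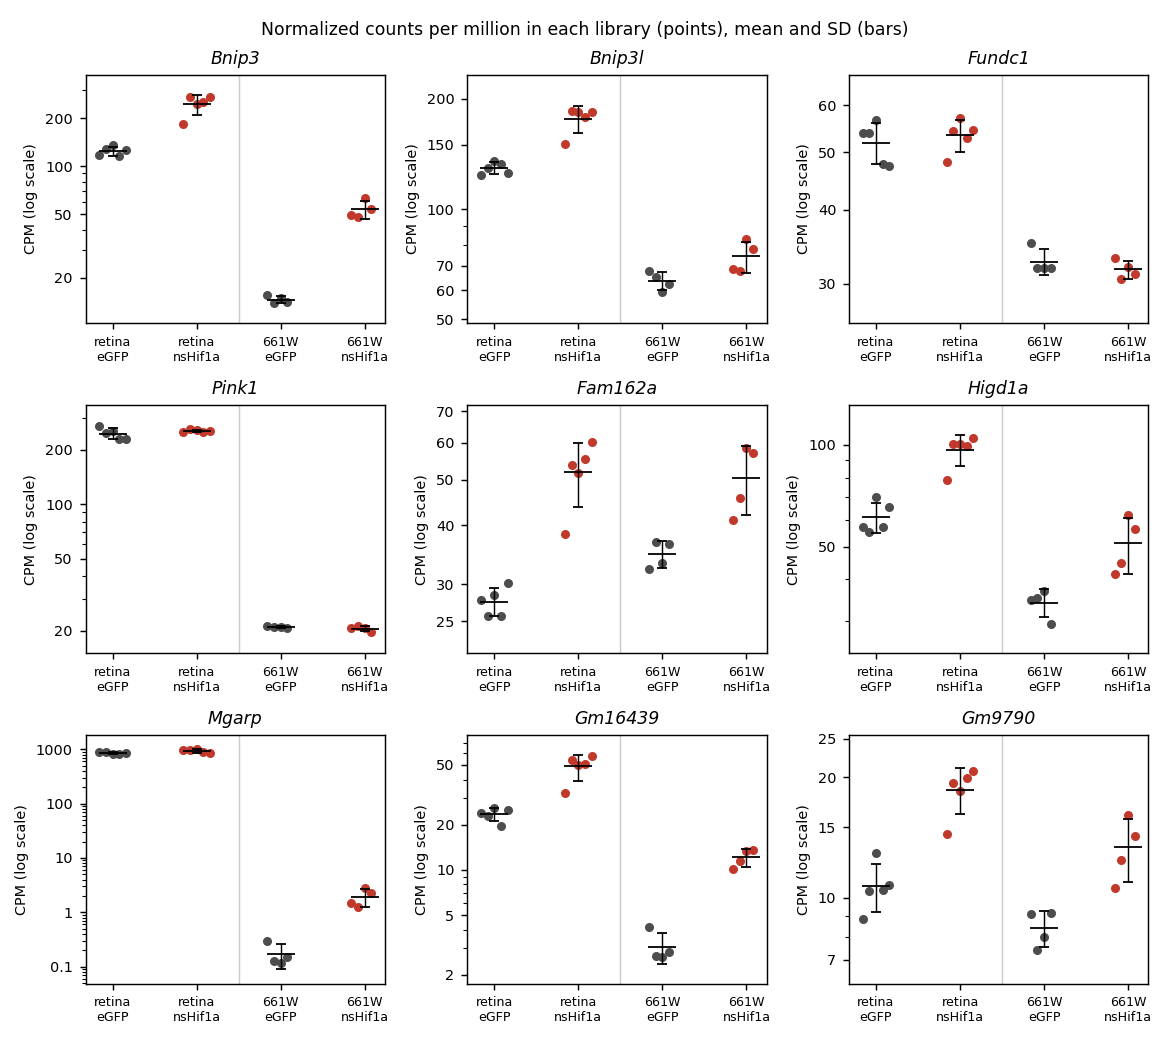
CPM (log scale) of the 9 genes in every library, eGFP in grey and nsHif1a in red, with the mean and SD of each group as bars. Bnip3 is higher with nsHif1a in all 5 retinal and all 4 cell libraries than in any control library, Mgarp is at 826 CPM or more in every retinal library and at 2.81 CPM or less in every cell library, and Fundc1 and Pink1 overlap between groups.

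Of the receptors, Bnip3 rose in both experiments. In the 5 AAV::eGFP retinas it was at 117.5, 128, 135, 115 and 126 CPM, and in the 5 AAV::nsHif1a retinas at 183, 271, 245, 251 and 269.8 CPM. The groups did not overlap, and the first AAV::nsHif1a library was the lowest of its group. The log2FC was 0.98 (SE 0.090, adjusted p = 0.00017, limma), a 1.98-fold rise. In the cells Bnip3 was at 15.5, 14.0, 14.9 and 14.1 CPM with eGFP and at 49.5, 48.4, 63.0 and 53.6 CPM with nsHif1a. Again the groups lay apart, here by more than 3-fold, and the log2FC was 1.85 (SE 0.092, adjusted p = 3.4e-05, limma), the 2nd smallest p-value of all 15962 genes.

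Bnip3l, best known for clearing mitochondria from maturing red blood cells, changed less. AAV::eGFP retinas had 124, 129, 135.5, 133 and 126 CPM and AAV::nsHif1a retinas 151, 185, 185, 178 and 184 CPM. All treated libraries were above all controls, but the log2FC of 0.46 (SE 0.054, adjusted p = 0.00073) was under the fold threshold, so Bnip3l was not among the called genes. Without the first AAV::nsHif1a library it was called, at a log2FC of 0.51. In the cells the levels were 67.9, 65.2, 59.5 and 62.4 CPM with eGFP and 68.7, 67.9, 82.6 and 77.9 CPM with nsHif1a. These groups met, and the log2FC of 0.21 had an adjusted p of 0.15.

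Fundc1, a receptor regulated mainly by phosphorylation under low oxygen, lay between 47.4 and 56.6 CPM in AAV::eGFP and between 48.2 and 57.0 CPM in AAV::nsHif1a retinas. Its log2FC was 0.07, with a 95% interval from -0.06 to 0.21. Cell libraries had between 31.8 and 35.1 CPM with eGFP and between 30.5 and 33.1 CPM with nsHif1a, a log2FC of -0.04 with an interval from -0.17 to 0.09. The groups overlapped in both experiments, and both intervals lie inside the fold threshold. Fundc1 lies on the X chromosome, and with the Xist class as a covariate its retinal log2FC was 0.00.

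Pink1 also overlapped between groups. It was between 228 and 269.9 CPM in AAV::eGFP and between 251 and 259.9 CPM in AAV::nsHif1a retinas, with a log2FC of 0.07 and an interval from -0.03 to 0.18. Cell libraries had between 20.65 and 21.3 CPM with eGFP and between 19.7 and 21.4 CPM with nsHif1a, a log2FC of -0.03 with an interval from -0.16 to 0.10. A change of the size seen for Bnip3 lay outside these intervals in both experiments.

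The balance of the outer-membrane receptors was expressed per length of annotated exon. Bnip3 made up 44.7% ± 1.35 of the per-kilobase counts of Bnip3, Bnip3l and Fundc1 in AAV::eGFP retinas and 55.4% ± 2.21 in AAV::nsHif1a retinas (SD, n = 5 each, higher in all 5 libraries). In the cells the share was 15.2% ± 0.665 with eGFP and 37.3% ± 1.36 with nsHif1a (SD, n = 4 each, higher in all 4 libraries). The share was chosen after the levels of these genes were seen and is given with no test. The highest share in nsHif1a cells, 39.3%, was below the lowest share in an AAV::eGFP retina, 42.9%.

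**Figure D2:**
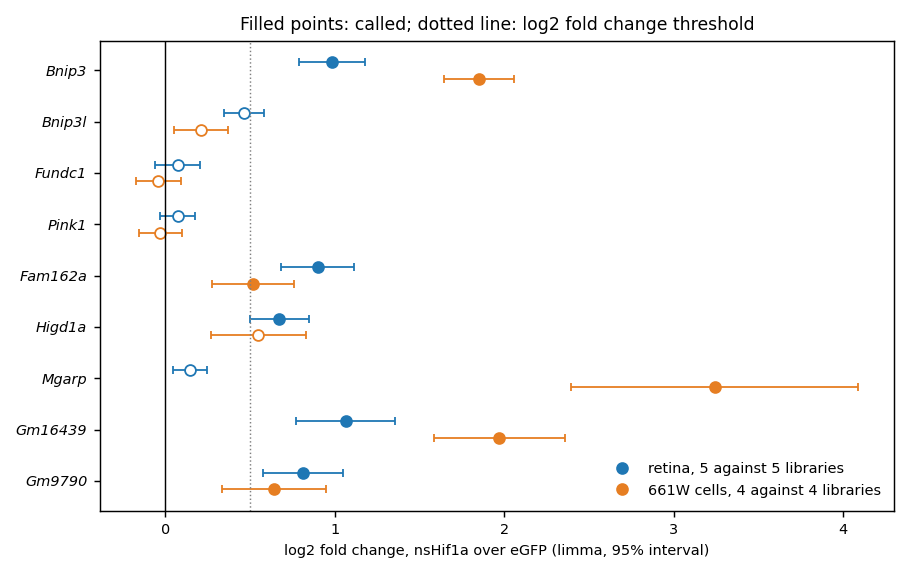
Log2FC of nsHif1a over eGFP from limma with 95% intervals, retina in blue and 661W cells in orange, filled where the gene was called. Mgarp shows the widest separation between the experiments, followed by Gm16439 and Bnip3, and the intervals of Fundc1 and Pink1 include 0 in both.

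The genes of HIF-induced mitochondrial proteins rose in part. Fam162a, also named HGTD-P, encodes a mitochondrial protein linked to cell death under low oxygen. It was at 27.8, 25.65, 28.4, 25.7 and 30.1 CPM in AAV::eGFP retinas and at 38.5, 53.8, 51.8, 55.3 and 60.2 CPM in AAV::nsHif1a retinas. The groups were apart, with the first AAV::nsHif1a library again lowest, at a log2FC of 0.90 (SE 0.099, adjusted p = 0.00047). In the cells it was at 32.4, 36.95, 33.35 and 36.5 CPM with eGFP and at 41.0, 45.8, 58.4 and 56.9 CPM with nsHif1a. The libraries did not overlap, but the rise was smaller and close to both thresholds (log2FC 0.52, SE 0.11, adjusted p = 0.043).

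Higd1a, an inner-membrane protein that associates with respiratory chain complexes, was at 57.3, 55.2, 70.05, 57.3 and 65.4 CPM in AAV::eGFP retinas and at 78.65, 101, 101, 98.9 and 105 CPM in AAV::nsHif1a retinas. These groups were apart, with a log2FC of 0.67 (SE 0.080, adjusted p = 8e-04). In the cells it was at 34.7, 35.2, 37.05 and 29.6 CPM with eGFP and at 41.5, 44.6, 62.0 and 56.4 CPM with nsHif1a. Every nsHif1a library was above every eGFP library, yet the log2FC of 0.55 (SE 0.12) missed the threshold at an adjusted p of 0.054. DESeq2 called it (log2FC 0.58, adjusted p = 0.0024).

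Mgarp, a HIF target that ties mitochondria to the kinesin adaptors TRAK1 and TRAK2 and so to transport along axons, differed most between the experiments. In the retina it was at 874, 883, 826, 830.0 and 868 CPM with AAV::eGFP and at 958, 983, 996, 889 and 839 CPM with AAV::nsHif1a. The groups overlapped through the last AAV::nsHif1a library, and the log2FC of 0.14 (SE 0.046, 95% interval 0.04 to 0.24) had an adjusted p of 0.092. In the cells Mgarp had 5, 2, 2 and 2 counts with eGFP and 26, 18, 48 and 38 counts with nsHif1a. All eGFP counts were under the filter's minimum of 10, so Mgarp passed it through the nsHif1a libraries alone. The eGFP libraries with 2 counts also lay under the limit of 3 counts. The groups were apart at a log2FC of 3.24 (SE 0.38, adjusted p = 0.0033), and the summed counts of 11 and 130 gave an 11.1-fold ratio per total count with an exact 95% interval of 6.00 to 22.8 that covers counting error only. Even so, the highest nsHif1a cell library had 2.81 CPM, where the lowest retina had 826 CPM.

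The difference between the effects was tested with an interaction term over all 18 libraries. At an adjusted p under 0.05 the effect differed for 2 of the 9 genes, Bnip3 and Mgarp, both with the larger log2FC in the cells. Over all 20999 genes, 2.33% differed and 1.25% had the larger log2FC in the cells. The retinal minus the cell effect was -0.90 for Bnip3 (SE 0.17, adjusted p = 0.014) and -3.20 for Mgarp (SE 0.44, adjusted p = 0.0011). With the replicate block of the cells these were -0.89 (adjusted p = 0.020) and -3.14 (adjusted p = 0.0045). The Mgarp difference rests on 2 to 5 counts in each eGFP cell library, and Mgarp passed the filter there only through the nsHif1a libraries. The size of its difference is therefore imprecise. Fam162a, Higd1a, Bnip3l and the pseudogenes missed this threshold, with adjusted p-values of 0.12 or more. The Hif1a effect itself differed by -3.29 between the experiments, and its part in these differences was not tested.

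The starting levels also differed. Control retinas and control cells were compared per kilobase of exon (FPKM) within each group and by limma between them. In AAV::eGFP retinas the order of the FPKM levels was Mgarp (582 ± 17.6), Pink1 (62.5 ± 4.49), Bnip3 (34.3 ± 2.24), Bnip3l (30.2 ± 1.101), Higd1a (17.9 ± 1.88), Fundc1 (12.1 ± 0.953) and Fam162a (9.93 ± 0.699), leaving out the pseudogenes (SD, n = 5). No neighbours in this order overlapped, although Bnip3 (31.7 to 37.2 FPKM) and Bnip3l (29.02 to 31.6 FPKM) nearly met. In eGFP cells the order was Bnip3l (13.8 ± 0.851), Fam162a (11.6 ± 0.658), Higd1a (9.29 ± 0.968), Fundc1 (7.08 ± 0.407), Pink1 (4.97 ± 0.126), Bnip3 (3.74 ± 0.222) and Mgarp (0.110 ± 0.0545, SD, n = 4), again with no overlap between neighbours. Bnip3 thus stood 3rd of 7 in the control retina and 6th of 7 in the control cells.

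With nsHif1a, Bnip3 rose to 67.45 ± 9.85 FPKM in the retina and to 13.75 ± 1.78 FPKM in the cells (SD, n = 5 and 4). In the retina it then overlapped Pink1 (65.2 ± 0.971 FPKM), and in the cells it overlapped Higd1a (14.0 ± 2.72), Fam162a (16.97 ± 2.93) and Bnip3l (16.15 ± 1.67). Between control retina and control cells 7 of the 9 genes were called higher in the retina, where 46.1% of all 20999 genes were called higher and 35.1% lower. The log2 differences were 12.2 for Mgarp, 3.64 for Pink1, 3.19 for Bnip3, 1.13 for Bnip3l, 0.94 for Higd1a and 0.76 for Fundc1. Fam162a, at -0.22, did not pass the test (adjusted p = 0.07). Tissue and experiment cannot be told apart in this comparison.

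Promoters were searched for the core of the HIF response element, ACGTG or GCGTG, on both strands of the 250 bases before the annotated start. The windows of Bnip3, Fam162a, Bnip3l and Mgarp are shown as examples with many or with few cores. Capitals mark the cores, which read CACGT or CACGC where they lie on the other strand. Positions are in GRCm39 (chr7:138511254-138511503 for Bnip3, chr16:35891956-35892205 for Fam162a, chr14:67246335-67246584 for Bnip3l and chr3:51303970-51304219 for Mgarp, all on the minus strand).
Bnip3: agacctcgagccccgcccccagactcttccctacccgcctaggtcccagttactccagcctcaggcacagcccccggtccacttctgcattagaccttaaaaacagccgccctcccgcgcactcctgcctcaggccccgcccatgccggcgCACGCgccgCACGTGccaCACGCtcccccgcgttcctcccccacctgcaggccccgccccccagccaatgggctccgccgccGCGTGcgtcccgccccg
Fam162a: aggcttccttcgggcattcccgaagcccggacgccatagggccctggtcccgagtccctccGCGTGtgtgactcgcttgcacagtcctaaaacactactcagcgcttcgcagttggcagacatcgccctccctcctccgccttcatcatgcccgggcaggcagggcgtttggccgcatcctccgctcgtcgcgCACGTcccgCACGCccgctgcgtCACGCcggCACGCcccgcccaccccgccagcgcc
Bnip3l: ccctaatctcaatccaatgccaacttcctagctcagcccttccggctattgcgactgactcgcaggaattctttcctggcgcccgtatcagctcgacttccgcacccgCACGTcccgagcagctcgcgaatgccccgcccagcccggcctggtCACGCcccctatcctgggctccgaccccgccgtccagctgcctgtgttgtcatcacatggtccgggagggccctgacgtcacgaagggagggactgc
Mgarp: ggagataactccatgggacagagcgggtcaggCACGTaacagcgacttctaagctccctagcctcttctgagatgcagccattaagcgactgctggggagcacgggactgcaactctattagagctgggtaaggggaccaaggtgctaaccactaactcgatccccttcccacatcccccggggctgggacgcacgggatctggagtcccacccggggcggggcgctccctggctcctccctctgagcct

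Bnip3 and Fam162a held 5 matches each, Bnip3l 2, Mgarp and Pink1 1 each, and Fundc1 0. The Bnip3 cores lay between 99 and 13 bases before the start, and 1 CACGTG there counts on both strands. Of 21757 promoters of protein-coding genes searched in the same way, 41.3% held at least 1 match, 18.2% at least 2 and 2.79% at least 4. These shares were not matched for GC content. It was 72.4% for Bnip3, 69.6% for Fam162a, 64.4% for Bnip3l, 61.6% for Mgarp, 54.4% for Pink1 and 44.4% for Fundc1. For Higd1a the window is given from RefSeq. The 250 bases before its start there, on the minus strand, at chr9:121857797-121858046 of GRCm38.p6, held 2 matches, where 38.6% of 32851 RefSeq windows held at least 1.
Higd1a, RefSeq window: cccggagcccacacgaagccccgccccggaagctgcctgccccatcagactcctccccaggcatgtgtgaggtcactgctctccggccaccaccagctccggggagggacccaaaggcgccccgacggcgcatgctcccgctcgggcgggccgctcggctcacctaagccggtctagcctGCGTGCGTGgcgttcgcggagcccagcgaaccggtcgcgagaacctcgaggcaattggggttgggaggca

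The RefSeq windows held 5 matches for Bnip3, 6 for Fam162a, 1 each for Mgarp and Pink1 and 0 for Fundc1. A match is a run of letters and not a binding site.

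The counts assigned to the pseudogenes Gm16439 and Gm9790 rose with those of the genes they copy. Gm16439 is a processed pseudogene of Bnip3 at chr14:44834122-44834685 (GRCm39, plus strand, 564 bp), equal in length to the Bnip3 coding sequence and different from it at 6 of 564 positions (98.9% identity). Gm9790 is a transcribed processed pseudogene of Higd1a at chr3:85823090-85823377 (plus strand, 288 bp) and differs from the Higd1a coding sequence at 2 of 288 positions (99.3% identity). Each of them consists of 1 exon and lies on another chromosome than its parent gene. The first 120 coding bases of each pair are shown because they hold 3 of the 6 and both of the 2 differences, which capitals mark.
Bnip3 coding sequence: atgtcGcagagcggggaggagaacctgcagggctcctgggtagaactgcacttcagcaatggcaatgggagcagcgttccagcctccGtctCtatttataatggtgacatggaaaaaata
Gm16439: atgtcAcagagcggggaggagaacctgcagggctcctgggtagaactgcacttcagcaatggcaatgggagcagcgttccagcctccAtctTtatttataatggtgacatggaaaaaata
Higd1a coding sequence: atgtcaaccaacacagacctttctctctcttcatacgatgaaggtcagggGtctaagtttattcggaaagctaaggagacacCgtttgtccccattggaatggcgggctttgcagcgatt
Gm9790: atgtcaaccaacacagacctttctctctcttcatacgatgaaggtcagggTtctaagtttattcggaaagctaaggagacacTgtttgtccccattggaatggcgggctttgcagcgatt

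Long stretches of each pair were identical. The longest run identical to the parent was 158 bases for Gm16439 and 205 bases for Gm9790. Of the 50-base words of Gm16439, 59.2% also occurred in Bnip3 and 74.4% in any other gene, and of those of Gm9790 65.7% occurred in Higd1a. The counts of both pseudogenes are therefore uncertain. Seen from the parents, 7.76% of the words of Bnip3 occurred in Gm16439, 6.20% in the pseudogene Gm6532 and 17.2% in any other gene. Of the words of Higd1a, 3.54% occurred in Gm9790 and 4.69% in any other gene. In addition 17.4% of the words of Bnip3l occurred in Gm58964, an lncRNA, and 9.705% in the pseudogene Bnip3l-ps. Fundc1 and Mgarp shared none with any gene.

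In the retina Gm16439 was between 19.75 and 25.9 CPM with AAV::eGFP and between 32.6 and 57.7 CPM with AAV::nsHif1a, a log2FC of 1.06 (SE 0.13, adjusted p = 0.0011). Cell libraries had 69, 41, 45 and 38 counts with eGFP and 179, 164, 229 and 228 counts with nsHif1a. These groups were apart in both experiments, and the log2FC in the cells was 1.97 (SE 0.17, adjusted p = 0.00068). Gm9790 was between 8.87 and 12.9 CPM and then between 14.5 and 20.8 CPM in the retina (log2FC 0.81, SE 0.11, adjusted p = 0.0015). In the cells it went from 7.39 to 9.16 CPM with eGFP to 10.6 to 16.1 CPM with nsHif1a (log2FC 0.64, SE 0.14, adjusted p = 0.045). Blocking on the replicate number moved the last adjusted p to 0.068, so that this call was lost. Another pseudogene with Bnip3 sequence, Gm6532 (chr14:44502501-44503059, 98.6% identity), had a log2FC of 1.06 in the retina (adjusted p = 0.003) and 2.45 in the cells (adjusted p = 0.0018).

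Whether pseudogene and parent moved apart was tested on their share of counts. Gm16439 made up 15.9% ± 0.929 of the counts of Bnip3 and Gm16439 in AAV::eGFP and 16.6% ± 0.900 in AAV::nsHif1a retinas (SD, n = 5 each, exact two-sided permutation test p = 0.18, adjusted 0.36 over 4 shares). In the cells the share was 17.2% ± 2.64 and 18.4% ± 1.49 (SD, n = 4 each, exact permutation p = 0.46, adjusted 0.61). Gm9790 made up 14.9% ± 1.06 and 16.1% ± 0.571 of the counts of Higd1a and Gm9790 in the retina (exact permutation p = 0.056, adjusted 0.22) and 19.9% ± 2.94 and 20.7% ± 0.732 in the cells (exact permutation p = 0.63, adjusted 0.63). None of the 4 differences passed the test. The test cannot separate transcription of a pseudogene from reads of its parent assigned to it, since both can leave the share level. With the cell libraries exchanged only between libraries of the same replicate number, the exact permutation p was 0.62 for Gm16439 and 0.75 for Gm9790, where 0.125 is the smallest that 4 such pairs allow. The retinal share of Gm9790 was 13.4 to 15.85% and then 15.5 to 16.75%, a difference of 1.22 percentage points that was larger than either SD. Without the 2nd or the 3rd AAV::eGFP library it was 1.465 and 1.40 points (unadjusted exact permutation p = 0.024 and 0.040). Over all 10 single omissions the difference ranged from 0.852 to 1.465 points, and 8 of them left the outcome of the test the same. The share of Gm6532 in the counts of Bnip3 and Gm6532 was not tested. It was 4.44 to 6.19% and 5.23 to 6.17% in the retina, where the groups overlapped, and 2.69 to 5.68% with eGFP and 5.83 to 6.26% with nsHif1a in the cells, where they lay apart. When the pseudogene counts were added to the parents, the log2FC of Bnip3 was 0.997 in the retina and 1.90 in the cells, and that of Higd1a was 0.69 and 0.57. Higd1a then passed the threshold in the cells (adjusted p = 0.039).

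**Figure D3:**
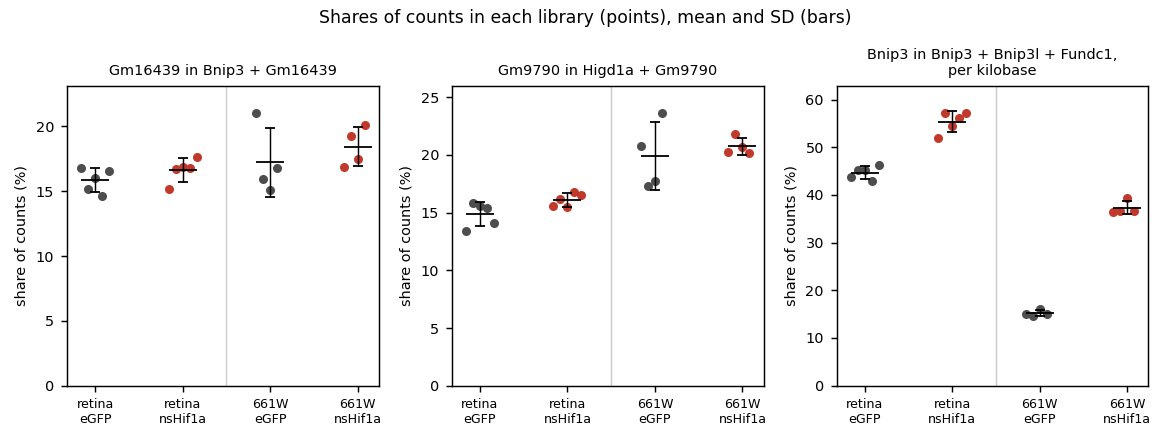
Share of counts (%) per library, eGFP in grey and nsHif1a in red with mean and SD, for Gm16439 among Bnip3 and Gm16439, Gm9790 among Higd1a and Gm9790, and Bnip3 among the per-kilobase counts of Bnip3, Bnip3l and Fundc1. The pseudogene shares overlap between groups in both experiments, whereas the Bnip3 share lies apart, at 42.9 to 46.2% and 52.0 to 57.2% in the retina.

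Libraries kept an order over most of the 9 genes. In AAV::nsHif1a retinas the first library was the lowest for 7 of the 9 genes, all but Pink1 and Mgarp, as it was for 24.9% of all genes tested. The summed rod markers of this library were 47390 CPM, the highest of its group, and its Hif1a count was the lowest, at 642 CPM. In nsHif1a cells the 3rd and 4th libraries were both above the 1st and 2nd for 7 of the 9 genes, all but Fundc1 and Pink1, as they were for 33.2% of all genes tested. Hif1a was at 1222 and 1241 CPM in the first pair and at 1954 and 1825 CPM in the second. The part of the Hif1a level in these differences was not tested.

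The pairs of cell libraries stood apart over all genes. Within a pair the chi-square per gene of the counts was 1.77 to 1.95, and between pairs 6.60 to 29.9, where counting noise alone gives a value near 1. The effect of nsHif1a in the 3rd and 4th libraries minus that in the 1st and 2nd was taken on the log2 scale. It was 1.37 for Mgarp, which had few counts, 0.62 for Gm16439, 0.52 for Higd1a and 0.415 for Fam162a. For Gm9790 it was 0.38, for Bnip3l 0.37, for Bnip3 0.27, for Fundc1 0.06 and for Pink1 -0.03. These values are given with no test because the spread within a pair was close to counting noise. Without any one of the eGFP libraries or of the 3rd and 4th nsHif1a libraries, Fam162a and Gm9790 were no longer called in the cells (log2FC 0.34 to 0.71 and 0.46 to 0.83 over all single omissions, adjusted p up to 0.092 and 0.097). Without the 1st or the 2nd nsHif1a library Higd1a was called (log2FC 0.76 and 0.75). With the counts of each pair summed, 0 of the 9 genes and 0 of 18117 genes were called by limma, and 6 of the 9 were higher at an unadjusted p under 0.05, as were 5.08% of all genes in either direction. Bnip3 then had a log2FC of 1.86 (SE 0.12, adjusted p = 0.095).

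Of a wider list around mitophagy, only further HIF-dependent mitochondrial genes passed both thresholds. A list of 54 genes covered other receptors, partners of PINK1, adaptors and Atg8 proteins, regulators of the receptors, relatives of the 9 genes, and partners of MGARP with further HIF-dependent mitochondrial genes. In the retina 3 of the 50 that passed the filter were called higher and 0 lower, where 1.08% of all genes were called higher, with a median log2FC of 0.04 against 0.00 for all genes. In the cells 2 of 47 were called higher and 0 lower, where 1.21% of all genes were called higher, with a median of 0.02 against 0.00. All called genes belonged to the further HIF-dependent mitochondrial genes. Ak4, an adenylate kinase of the mitochondrial matrix, went from 47.9 ± 5.40 to 96.9 ± 11.1 CPM in the retina (log2FC 1.02, adjusted p = 0.00015) and from 6.66 ± 1.43 to 34.7 ± 7.85 CPM in the cells (log2FC 2.37, adjusted p = 7e-04). Of its 50-base words 5.99% occurred in the pseudogene Ak3l2-ps. Pdk1, which inhibits pyruvate dehydrogenase, went from 67.7 ± 3.83 to 102 ± 15.8 CPM in the retina (log2FC 0.57, adjusted p = 0.0026) and from 10.03 ± 1.74 to 28.7 ± 0.0665 CPM in the cells (log2FC 1.53, adjusted p = 0.00013). Cox4i2, the cytochrome c oxidase subunit of low oxygen, went from 17.2 ± 3.15 to 24.4 ± 1.45 CPM in the retina (log2FC 0.58, adjusted p = 0.008) and had at most 4 counts in any cell library (SD, n = 5 per retinal and 4 per cell group).

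By group, 0 of 6 other receptors, 0 of 16 partners of PINK1 and 0 of 14 adaptors and Atg8 proteins were called in the retina by limma, edgeR or DESeq2. At an unadjusted p under 0.05 these were 3, 3 and 5 genes, of which 8 were higher and 3 lower, where 21.7% of all genes had such a p in either direction. In the cells 0 of 6, 0 of 15 and 0 of 14 were called by any of the 3 tools, and 3 each had an unadjusted p under 0.05, 5 of them higher and 4 lower, where 20.7% of all genes did. Of the regulators and relatives, 0 of 7 were called in either experiment by the 3 tools, with 2 in the retina and 1 in the cells at an unadjusted p under 0.05. With the adjusted p alone, 6 of the 50 listed genes rose and 2 fell in the retina, where 3.31% of all genes rose and 2.47% fell. Besides the 3 called genes these were, named after their values were seen, the autophagy kinase Ulk1 (log2FC 0.36, adjusted p = 0.0023), the outer-membrane channel Vdac1 (0.35, adjusted p = 0.0029), the matrix protease Lonp1 (0.30, adjusted p = 0.020), the mitofusin Mfn2 (-0.20, adjusted p = 0.024) and Fbxl4, which limits BNIP3 and NIX protein (-0.27, adjusted p = 0.045). In the cells 2 of 47 passed the adjusted p, Ak4 and Pdk1, where 2.06% of all genes rose and 0.426% fell.

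**Figure D4:**
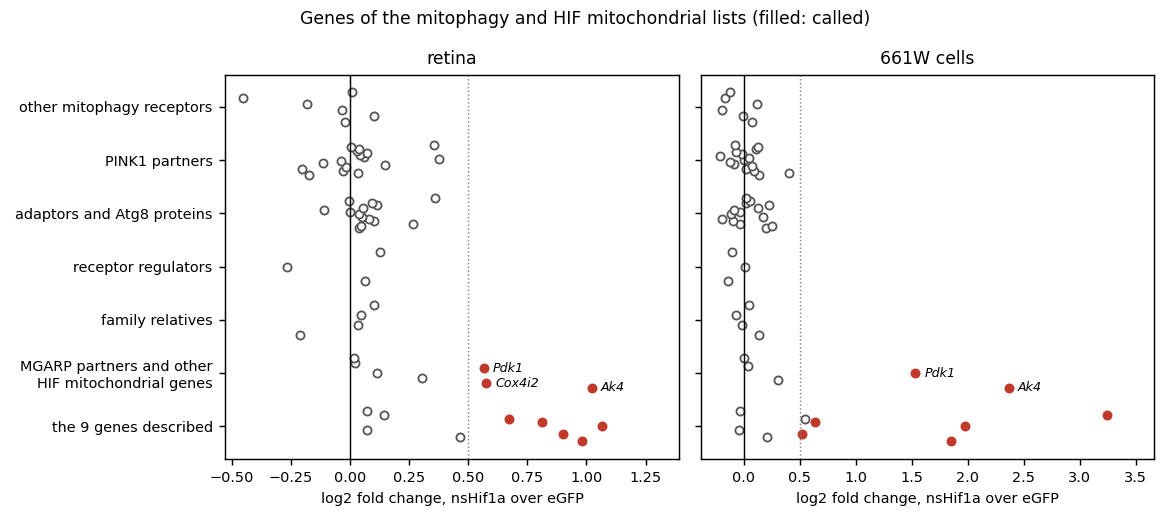
Log2FC of nsHif1a over eGFP for each tested gene of the mitophagy and HIF mitochondrial lists and for the 9 genes described, retina on the left and 661W cells on the right, filled where called. The called genes outside the 9 are Ak4, Pdk1 and, in the retina, Cox4i2, and no receptor, PINK1 partner or adaptor is filled.

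The genes that followed Bnip3 most closely were ranked by the smaller of the Pearson correlations of log2 CPM over the 10 retinal and the 8 cell libraries, among 13985 genes. These coefficients describe libraries that share a group difference and a depth. Tbl2, an endoplasmic reticulum protein, came first (r = 0.990 and 0.995), followed by the lactate transporter Slc16a3 (0.986 and 0.992), Smtnl2 (0.982 and 0.990), Ak4 (0.980 and 0.983) and the glycolytic regulator Pfkfb3 (0.975 and 0.984). Within groups, after removal of the group means, Tbl2 kept r = 0.905 in the retina and 0.952 in the cells, and Pfkfb3 0.771 and 0.533. Among the 9 genes, r with Bnip3 was 0.976 or more in the retina for Bnip3l, Fam162a, Higd1a, Gm16439 and Gm9790. In the cells it was 0.985 for Mgarp and Gm16439, 0.910 for Gm9790, 0.882 for Higd1a, 0.881 for Fam162a and 0.800 for Bnip3l. For Mgarp in the retina r was 0.549. For Fundc1 r was 0.408 in the retina and -0.322 in the cells, and for Pink1 0.405 and -0.434. Gm16439 shares long stretches with Bnip3, so its counts may include reads of Bnip3, and Mgarp had few counts in the cells.

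Cell composition is given beside these results. All 9 rod markers had a negative log2FC in the retina (median -0.22) and 0 were called by limma, edgeR or DESeq2, with 6 at an unadjusted p under 0.05. All 7 microglial markers had a positive log2FC (median 1.09, 0 called by the 3 tools, 4 at an unadjusted p under 0.05), and the summed level was 26.7 to 151 CPM with AAV::eGFP and 51.2 to 151 CPM with AAV::nsHif1a. All 6 endothelial markers also had a positive log2FC (median 0.27, 0 called by the 3 tools, 2 at an unadjusted p under 0.05), summing to between 226 and 282 CPM with AAV::eGFP and between 264 and 332 CPM with AAV::nsHif1a. Of the 6 γ-crystallins limma called 0, edgeR 2 and DESeq2 5, and all 6 had an unadjusted p under 0.05. The same 5 genes were called in the retina with the Xist class as a covariate, and with the γ-crystallin mean as a covariate 6 genes were called, Bnip3l in addition. The part of microglial or endothelial markers or of the lower rod marker levels in the retinal changes was not tested.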

How the data were processed

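The authors prepared stranded mRNA libraries, aligned paired reads with Rsubread (GRCm39), and assigned them to gencode M36 basic genes with featureCounts on the antisense strand. They deposited 1 table of raw counts per experiment, and groups came from the sample titles. Genes were filtered by filterByExpr at a minimum count of 10, libraries were scaled by TMM (edgeR 4.0.16), and voomWithQualityWeights values were fitted in limma 3.58.1 under R 4.3.3 with Benjamini-Hochberg adjustment, after tests on simulated data. The 9 genes and the lists were chosen with earlier results of these data known, and other named genes by rule: pathway genes called in either experiment, genes sharing 50-base words, Hif1a, and the 5 genes most like Bnip3. Positions and sequences are from GRCm39 with gencode M39, which held 78168 of the genes, and from RefSeq (GRCm38.p6), which matched 6 of the 7 protein-coding genes but not Bnip3l. Same-numbered cell libraries deviated together (r = 0.227 to 0.269), so replicate numbers were taken as pairs there. Alternatives included DESeq2 1.42.0 and edgeR's quasi-likelihood test, other weights, size factors, filters and thresholds, merged pseudogenes, blocks, covariates and omitted libraries. The Bnip3 share, the contrast of cell library pairs and the permutation within replicate pairs were added after seeing the data. A promoter window of Higd1a in GRCm39 is not reported here.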

Additional observations from a re-analysis of the deposited data

Results flagged for a closer look

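Some values stood apart from the rest of their group, by a test for 1 stray value that flags about 1 in 20 groups by chance and here flagged 5 of 48. In the first AAV::nsHif1a retina Bnip3l was at 151 CPM, where the other 4 libraries had 178 to 185 CPM, and Higd1a was at 78.7 CPM, where the others had 98.9 to 105 CPM. In the first eGFP cell library Fundc1 was at 35.1 CPM, where the other 3 had 31.8 CPM, and Gm16439 was at 4.14 CPM, where the others had 2.65 to 2.85 CPM. In the 3rd nsHif1a cell library the Bnip3 share of the receptor counts was 39.3%, where the others had 36.4 to 36.7%.

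The effect of nsHif1a differed between retina and cells for Bnip3, by -0.895 on the log2 scale, and for Mgarp, by -3.196, in the interaction test (limma, adjusted p = 0.014 and 0.0011). Mgarp had 2 to 5 counts in each eGFP cell library, which limits the precision of its value.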

How the results depend on the processing

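The 5 calls in the retina fell to 1 with a log2FC threshold of 1 and to 3 with the pseudogene counts added to their parents, which leaves 7 genes to test, and ranged from 5 to 6 with 1 library left out. The 5 calls in the cells fell to 3 with edgeR's quasi-likelihood test, with voom without sample quality weights and with a threshold of 1, and to 0 with the counts of library pairs summed, and ranged from 3 to 6 with 1 library left out. The 2 genes whose effect differed between retina and cells became 2 to 4 with 1 library left out. With the Xist class as a covariate the retinal log2FC turned to -0.0007641 for Fundc1 and -0.01497 for Pink1, which was -0.01368 in the libraries with Xist counts alone. With 1 library left out, the difference of the effects ranged from -0.08789 to 0.323 for Higd1a and from -0.0281 to 0.3497 for Gm9790, neither past the threshold. The causes of these changes were not tested. DESeq2 gave Mgarp in the cells no adjusted p. In the retina same-numbered libraries did not deviate together (2 of 5 correlations over 0.1, mean -0.0018), and the replicate block left 5 calls there. In the cells the block changed no call but that of Gm9790, leaving 4. With 2 to 48 counts of Mgarp per cell library, depth limits the precision of its fold change.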
